A study of Mus musculus with 16 samples.

Results

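Cell cycle exit regulators are the genes that decide in the first gap phase of the cell cycle whether a cell copies its DNA again or stops dividing. The 10 genes described here were listed by name and all were found among the 32166 genes of the normalized gene table. They are the D cyclins Ccnd1, Ccnd2 and Ccnd3, their kinase Cdk4, the inhibitors Cdkn1a (p21), Cdkn1b (p27), Cdkn2c (p18) and Cdkn2d (p19), and the retinoblastoma family members Rb1 and Rbl1 (p107). The rule is a list of names with no threshold on a measured value, drawn up with earlier results of these data known.

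D cyclins bind Cdk4 or Cdk6, and the active kinase phosphorylates the retinoblastoma proteins, which otherwise hold E2F transcription factors in check. Cdkn2c and Cdkn2d bind Cdk4 and Cdk6 directly, whereas Cdkn1a and Cdkn1b also act on complexes of Cdk2. In the mouse retina, Ccnd1 is the main D cyclin of dividing progenitors, Cdkn1b takes part in their exit from the cycle, and rods need Rb1 to develop normally.

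The cells came from mouse retinal organoids, cultures in which pluripotent stem cells form layered retinal tissue. All carried a green fluorescent protein under the Nrl promoter (genotype Nrlp-GFP), which is active in rod precursors and rods, and GFP-positive cells were sorted for polyA RNA-seq. The stem cells were either induced pluripotent stem cells (iPSCs), made from embryonic fibroblasts with inducible Oct3/4, Sox2, Klf4 and c-Myc, or embryonic stem cells (ESCs) from blastocysts. Every group shared the same low-oxygen start, retinoic acid and taurine treatment. The 7 iPSC libraries comprised 2 at day 18, 1 at day 21, 2 at day 25, 1 at day 28 and 1 at day 35. The 9 ESC libraries comprised 3 at day 18, 3 at day 21 and 1 at each of days 25, 28 and 35. Nothing in the labels says whether libraries of a group came from separate cultures or from how many clones, and the spread behind each p-value is that between libraries, which may be technical.

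The estimated counts of the transcripts held summed to 2573023 to 14454287 per library, and 1 count was worth 0.0372 to 0.216 CPM, the unit of the gene levels below (counts scaled to the size of the library). All 7 rod markers were called higher at days 25 to 35 than at day 18, with a summed level of 4805 to 13025 CPM against 234 to 4106 CPM. A pair of day 18 libraries, iPSC replicate 1 and ESC replicate 1, held Nrl at only 16 and 17.7 CPM and the proliferation antigen Mki67 at 462 and 406 CPM. The next lowest Nrl level at day 18 was 136 CPM, and without this pair 2 of the 7 rod markers were called. These libraries also correlated with each other at 0.992 across genes, the highest value of any pair. The Y-linked gene Eif2s3y stood at 72.0 CPM in iPSC day 18 replicate 2 and 14.6 CPM in iPSC day 25 replicate 1, against 0.046 to 1.44 CPM in the other 5 iPSC libraries. In ESC day 18 replicate 1 it stood at 0.703 CPM, against 36.0 to 114 CPM in the other 8 ESC libraries, so these 3 libraries stood apart from the others of their source. Calls for Cdk4, Rbl1 and the gene lists are given with and without the low-Nrl pair and the 2 day 18 libraries set apart by Eif2s3y.

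The promoters of 4 genes are shown: Rbl1 and Cdk4 because they were the genes called below, and Cdkn1a and Ccnd3 because most of their RNA came from the downstream of a pair of starts. They are the 120 bases before a transcription start in the RefSeq promoter table of build GRCm38.p6, which matched 7 of the 10 genes with 10 starts.
Rbl1: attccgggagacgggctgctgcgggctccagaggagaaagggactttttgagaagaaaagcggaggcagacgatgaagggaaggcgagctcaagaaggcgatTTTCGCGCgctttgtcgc
Cdk4: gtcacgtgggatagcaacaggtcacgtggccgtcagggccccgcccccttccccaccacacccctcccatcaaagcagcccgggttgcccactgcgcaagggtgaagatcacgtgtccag
Cdkn1a downstream start: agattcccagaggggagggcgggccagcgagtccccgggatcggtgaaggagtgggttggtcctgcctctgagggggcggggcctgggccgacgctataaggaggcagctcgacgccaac
Cdkn1a upstream start: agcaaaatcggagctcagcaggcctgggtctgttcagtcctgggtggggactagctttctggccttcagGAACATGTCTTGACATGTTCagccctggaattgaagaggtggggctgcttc
Ccnd3 downstream start: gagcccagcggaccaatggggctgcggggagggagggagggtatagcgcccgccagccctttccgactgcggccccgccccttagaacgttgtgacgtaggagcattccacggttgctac
Ccnd3 upstream start: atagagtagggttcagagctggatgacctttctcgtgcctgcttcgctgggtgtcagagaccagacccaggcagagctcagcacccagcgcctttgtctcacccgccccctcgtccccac
Their positions, in the order printed, are chr2:157204535-157204654 (minus strand), chr10:127063415-127063534, chr17:29093649-29093768, chr17:29090859-29090978, chr17:47593347-47593466 and chr17:47504931-47505050 (all plus strand). Capitals in Rbl1 mark the E2F motif TTTCGCGC, which starts 18 bases before the start. The search used TTTCCCGC, TTTCGCGC, TTTGCCGC and TTTGGCGC on both strands of the 250 bases before each start. Such a match occurred in 1.86% of the 32851 promoters of the table, and among the 10 starts of the listed genes it occurred at Rbl1 alone. Capitals in the upstream Cdkn1a window mark a match to the p53 site, 2 adjacent half-sites with 1 mismatch, starting 51 bases before the start. That pattern was added after this window had been seen, so its share is no independent background for the match. With up to 1 mismatch, it occurred in 15 of the 32851 promoters (0.0457%). The SP1 motif GGGCGG, found in 32.7% of all promoters, occurred at 8 of the 10 starts. The CHR motifs TTTGAA and TTCGAA (17.1% of all promoters) and the CRX motif TAATCC (6.25%) occurred at 0 of the 10. These are letter matches and do not show binding.

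At days 25 to 35 the kinase of the D cyclins and 1 pocket protein were lower than at day 18, and 0 of the 4 inhibitors passed the test. Cdk4 and Rbl1 were called lower, 2 of the 10 genes, at an adjusted p under 0.05 in limma's moderated test of log2(CPM + 1). Across the 15202 genes tested, 17.1% were called in this comparison, 7.64% lower and 9.47% higher, so the share of the 10 genes called lies near the background. That background itself ran from 2.98% called (without iPSC day 18 replicate 1) to 25% (without ESC day 35) when single libraries were left out, with 1 and 4 of the 10 genes called in these fits. The median log2 fold change of the 10 genes was -0.71, against 0.01 over all genes tested. It was -0.39 without the low-Nrl pair and -0.61 without the 2 day 18 libraries set apart by Eif2s3y. Within one source it was -0.42 in ESC and -1.04 in iPSC cells, and against day 21 it was -0.35. No test was made of these medians. In this sorted material, fewer cells of a type and less RNA per cell cannot be told apart.

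**Figure D1:**
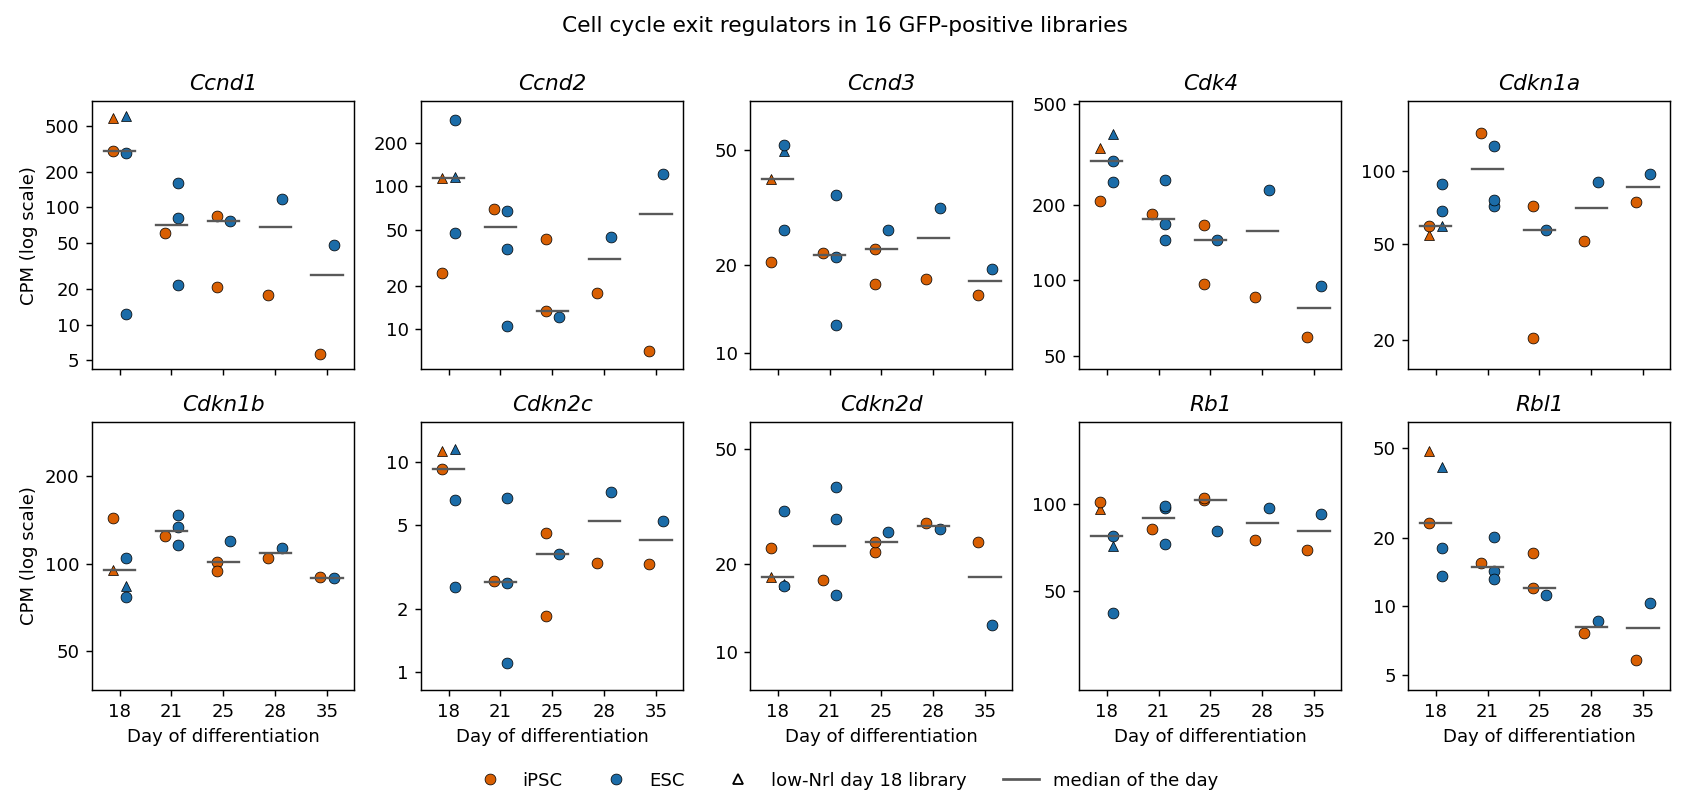
CPM on a log scale in each of the 16 libraries by day, with iPSC and ESC points side by side, triangles for the low-Nrl day 18 pair and a bar at the median of the day. Cdk4 and Rbl1 have their lowest points, 59.8 and 5.78 CPM, in iPSC day 35, while Cdkn1b lies between 76.9 and 148 CPM in all libraries.

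Cdk4, the kinase partner of the D cyclins, had a lowest, median and highest level of 59.8, 96.5 and 229 CPM in the 7 libraries of days 25 to 35. At day 18 the 2 iPSC libraries had 337 and 206 CPM and the 3 ESC libraries 382, 246 and 298 CPM. All but 1 of the later libraries lay below every day 18 library, the exception being ESC day 28. The log2 fold change was -1.29 ± 0.24 (SE; adjusted p = 0.0065 by limma). At day 35 alone the levels were 59.8 CPM in iPSC and 95.03 CPM in ESC cells, a log2 fold change of -1.88 ± 0.33 against day 18 (adjusted p = 0.0090 by limma).

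Without the low-Nrl pair the Cdk4 values were -1.03 ± 0.27 (SE; adjusted p = 0.107 by limma) for days 25 to 35 and -1.62 (adjusted p = 0.052) for day 35, and both calls were lost. Within one source, days 25 to 35 against day 18 gave -1.59 in iPSC cells and -1.05 in ESC cells, neither of which passed (adjusted p = 0.071 and 0.223 by limma). The spread behind these p-values was pooled over both sources.

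Cdk4 is also a gene whose reads were shared among many annotated transcripts. Protein-coding transcripts took a median of 40.2% of its TPM (a level per transcript length), with a range of 30.5 to 49.2% over the 16 libraries. The transcript with the largest median share, 28.0%, was Cdk4-209, annotated as a retained intron. Over the coding transcripts alone the level was 95.3 ± 38.4 TPM at days 25 to 35 (SD, n = 7) and 245 ± 59 TPM at day 18 (SD, n = 5). These coding levels ran from 49.1 to 150 TPM at days 25 to 35 and from 186 to 318 TPM at day 18.

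Rbl1 encodes p107, a pocket protein that works mainly with the repressor E2Fs and is abundant in dividing cells. Its lowest, median and highest levels at days 25 to 35 were 5.78, 10.3 and 17.1 CPM. At day 18 it stood at 48.2 and 23.2 CPM in the iPSC libraries and at 41.0, 13.6 and 18.0 CPM in the ESC libraries. The highest later value, in iPSC day 25 replicate 1, exceeded ESC day 18 replicate 2, so the groups overlapped.

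The log2 fold change of Rbl1 for days 25 to 35 was -1.38 ± 0.30 (SE; adjusted p = 0.012 by limma), and for day 35 alone -1.63 ± 0.42 (adjusted p = 0.035 by limma). Without the low-Nrl pair these were -0.86 ± 0.26 (adjusted p = 0.161) and -1.11 (adjusted p = 0.137), past the threshold in neither case. For days 25 to 35, leaving out iPSC day 18 replicate 1 alone gave -1.13 (adjusted p = 0.061). Without the 2 day 18 libraries set apart by Eif2s3y, Cdk4 (-1.30, adjusted p = 0.024 by limma) and Rbl1 (-1.25, adjusted p = 0.047) both remained called for days 25 to 35. Within one source the values were -1.83 in iPSC cells and -1.05 in ESC cells, with adjusted p = 0.082 and 0.302.

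Rb1, the founding pocket protein, was not called. It ranged from 69.4 to 105 CPM at days 25 to 35 (median 92.3) and stood at 96.4 and 101 CPM in the iPSC and 71.3, 77.5 and 42.0 CPM in the ESC libraries of day 18. For Rb1 the log2 fold change was 0.19, with a 95% interval of -0.24 to 0.63. Set side by side in TPM, the ratio of Rb1 to Rbl1 was 6.11 to 12.2 in the 7 libraries of days 25 to 35, against 2.03 and 4.44 in the iPSC and 1.76, 5.79 and 2.36 in the ESC libraries of day 18. Every later ratio thus lay above every day 18 ratio, a description of the 2 genes together for which no test was made. The ratio includes Rbl1, itself called lower in this comparison. At day 21 the ratio was 5.38 in the iPSC and 5.15, 4.85 and 7.58 in the ESC libraries, overlapping both groups.

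**Figure D2:**
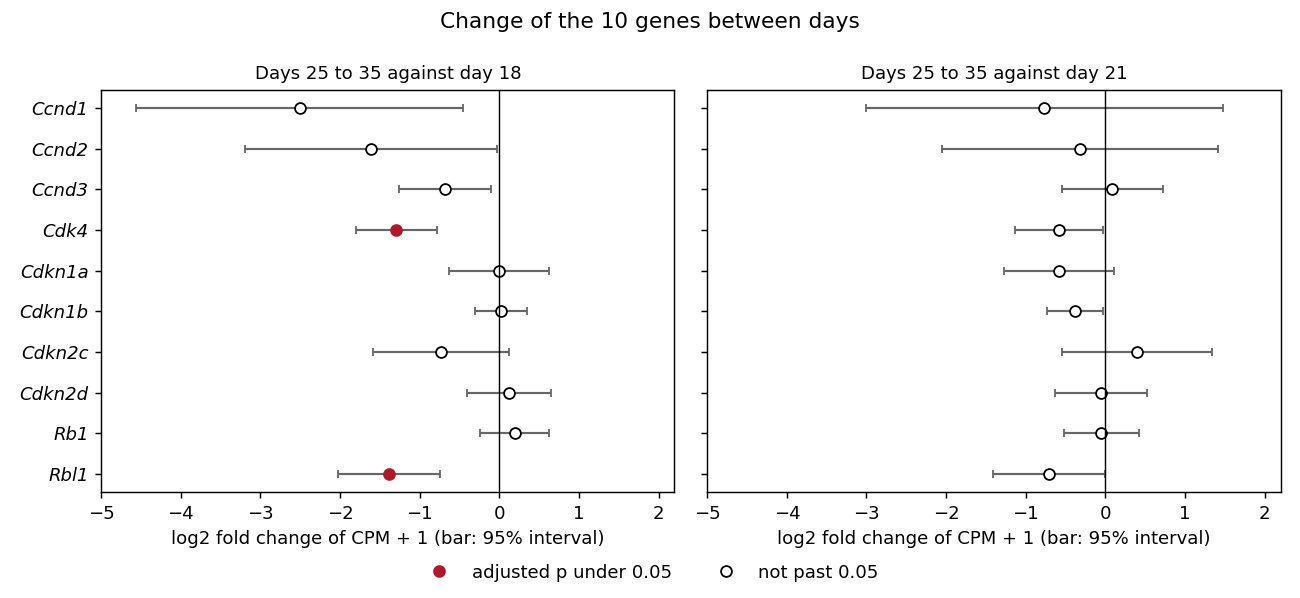
Log2 fold change of CPM + 1 for the 10 genes with 95% intervals, for days 25 to 35 against day 18 (left) and against day 21 (right), with filled points where the adjusted p is under 0.05. Only Cdk4 (-1.29) and Rbl1 (-1.38) are filled on the left, no gene is filled on the right, and the intervals of Ccnd1 and Ccnd2 are the widest.

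None of the 3 D cyclins passed in limma after adjustment, although each had an unadjusted p under 0.05 for days 25 to 35 against day 18, as did 34.4% of all genes. The count test edgeR called 0 of the 2 D cyclins it could test, and DESeq2 called both of them, Ccnd2 and Ccnd3. Of all genes tested, edgeR called 16.8% (8.67% lower) and DESeq2 27.1% (14.5% lower) in this comparison. With the replicate number as a block, limma called all 3 D cyclins and Cdkn2c lower besides Cdk4 and Rbl1, 6 of the 10 genes, where 30.9% of all genes were called and 15.7% were called lower. The sum of the 3 genes was 28.5 to 194 CPM at days 25 to 35, against 332 to 767 CPM at day 18, a description in CPM for which no test was made. Each of the 3 genes alone overlapped between these days. The lowest day 18 sum was that of ESC replicate 2, with 12.4 CPM of Ccnd1 and 293 CPM of Ccnd2.

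Ccnd1, the cyclin of retinal progenitors, varied more than any other listed gene, from 5.59 to 601 CPM. At days 25 to 35 its lowest, median and highest levels were 5.59, 47.7 and 118 CPM. At day 18 it stood at 578 and 305 CPM in iPSC cells and at 601, 12.4 and 291 CPM in ESC cells. In all, 4 of the 5 day 18 libraries were above every later library, and ESC replicate 2 was below all but 1 of them. The log2 fold change was -2.51 ± 0.95 (SE; adjusted p = 0.083 by limma). Without ESC day 18 replicate 2, Ccnd1 joined the called genes in this comparison, in that of day 35 with day 18 and in the test of any difference between days.

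Ccnd2, another D cyclin of dividing cells, ran the other way in that library. It reached 293 CPM in ESC day 18 replicate 2, the highest of all 16 libraries, against 47.1 and 116 CPM in the other ESC and 25.0 and 115 CPM in the iPSC libraries of day 18. The ratio of Ccnd1 to Ccnd2 levels in CPM was 0.042 there and 5.04 to 12.2 in the other 4. The same library held the summed progenitor markers at 181 CPM, where its day 18 counterparts had 479 to 1638 CPM. Its 4 fibroblast markers summed to 264 CPM, and those of its counterparts to 3.20 to 25.2 CPM. Their part in the D cyclin values was not tested.

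At days 25 to 35 the lowest, median and highest Ccnd2 levels were 7.10, 17.9 and 121 CPM, and the log2 fold change against day 18 was -1.61 ± 0.74 (SE; adjusted p = 0.139 by limma). The highest of these was ESC day 35, against 7.10 CPM in iPSC day 35. The summed 7 Müller glia markers were 233 CPM in iPSC day 35 and 1373 CPM in ESC day 35. The 6 bipolar markers summed to 86.4 CPM in iPSC day 35 and 347 CPM in ESC day 35. The part of these markers was not tested. Without ESC day 35, Ccnd1 and Ccnd2 were both called for days 25 to 35 against day 18, in addition to Cdk4 and Rbl1.

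Ccnd3, the D cyclin of many differentiated cells, changed over a narrower range. It stood between 15.8 and 31.7 CPM at days 25 to 35 (median 19.4), against 39.9 and 20.5 CPM in the iPSC and 49.6, 26.5 and 52.0 CPM in the ESC libraries of day 18. Its log2 fold change was -0.68 ± 0.27 (SE; adjusted p = 0.093 by limma), and the groups overlapped.

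Of the 4 inhibitors of cyclin-dependent kinases, 0 were called for days 25 to 35 against day 18. None had an unadjusted p under 0.05 in limma without the block, and neither edgeR nor DESeq2 called any of the 3 it could test, although both gave Cdkn2c an unadjusted p under 0.05. Their median log2 fold change was 0.01.

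Cdkn1b, or p27, an inhibitor that holds cells out of the cycle, had the narrowest range of the 10 genes, 76.9 to 148 CPM. At days 25 to 35 its lowest, median and highest levels were 89.0, 101 and 120 CPM. At day 18 it stood at 94.99 and 144 CPM in iPSC and at 84.0, 76.9 and 105 CPM in ESC cells. The log2 fold change was 0.02, with a 95% interval of -0.30 to 0.35.

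Against day 21, where Cdkn1b stood at 125 CPM in iPSC and 116, 134 and 148 CPM in ESC cells, 6 of the 7 later libraries lay below every day 21 library. The log2 fold change was -0.38 ± 0.17 (SE; adjusted p = 0.295 by limma) and did not pass.

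Cdkn1a, or p21, a target of p53, had lowest, median and highest levels of 20.5, 71.8 and 96.8 CPM at days 25 to 35. At day 18 it stood at 54.2 and 59.3 CPM in iPSC and at 59.5, 88.1 and 68.6 CPM in ESC cells. Cdkn1a was at a log2 fold change of -0.0017, with a 95% interval of -0.63 to 0.63. Day 21 held the highest single values, 144 CPM in iPSC and 127 CPM in ESC replicate 2, and the later libraries were at -0.58 against day 21 (95% interval -1.27 to 0.11).

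The downstream start of Cdkn1a, at base 29093769, carried a median of 91.8% of its TPM (range 86.4 to 94.97%). The upstream start, at base 29090979, carried 5.04% (range 1.59 to 11.2%). The p53 match printed above lies upstream of either start on the same strand, although only the window of the upstream start reaches it. Which start the match serves was not tested. The gene whose level followed Cdkn1a most closely over the 16 libraries was Phlda3 (Pearson r = 0.92), then Ccng1 (0.79) and Wfikkn2 (0.77). Phlda3 and Ccng1 are known p53 targets. Cdkn1a and Phlda3 shared their highest library, iPSC day 21, at 144 and 20.1 CPM, and their lowest, iPSC day 25 replicate 2, at 20.5 and 2.05 CPM.

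Cdkn2c, or p18, was the lowest of the listed genes and rested on 10 to 276 estimated counts per library. Its level was 1.84 to 7.20 CPM at days 25 to 35 (median 3.65), against 11.3 and 9.27 CPM in the iPSC and 11.6, 2.53 and 6.58 CPM in the ESC libraries of day 18. For Cdkn2c the log2 fold change was -0.73, with a 95% interval of -1.59 to 0.13. The 2 closest genes were Ect2 (r = 0.92) and Racgap1 (0.91), both parts of the machinery of cell division.

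Cdkn2d, or p19, the inhibitor known from postmitotic neurons, stood between 12.3 and 27.7 CPM at days 25 to 35 (median 23.8). At day 18 it stood at 18.0 and 22.7 CPM in iPSC and at 17.1, 16.8 and 30.5 CPM in ESC cells. Cdkn2d was at a log2 fold change of 0.12, with a 95% interval of -0.41 to 0.65. Its sign turned to -0.03 when each library's CPM was rescaled to one common sum, a step that lowers the median of all genes by 0.14 on the log2 scale. The sign of Cdkn1b turned under the same step, to -0.13.

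**Figure D3:**
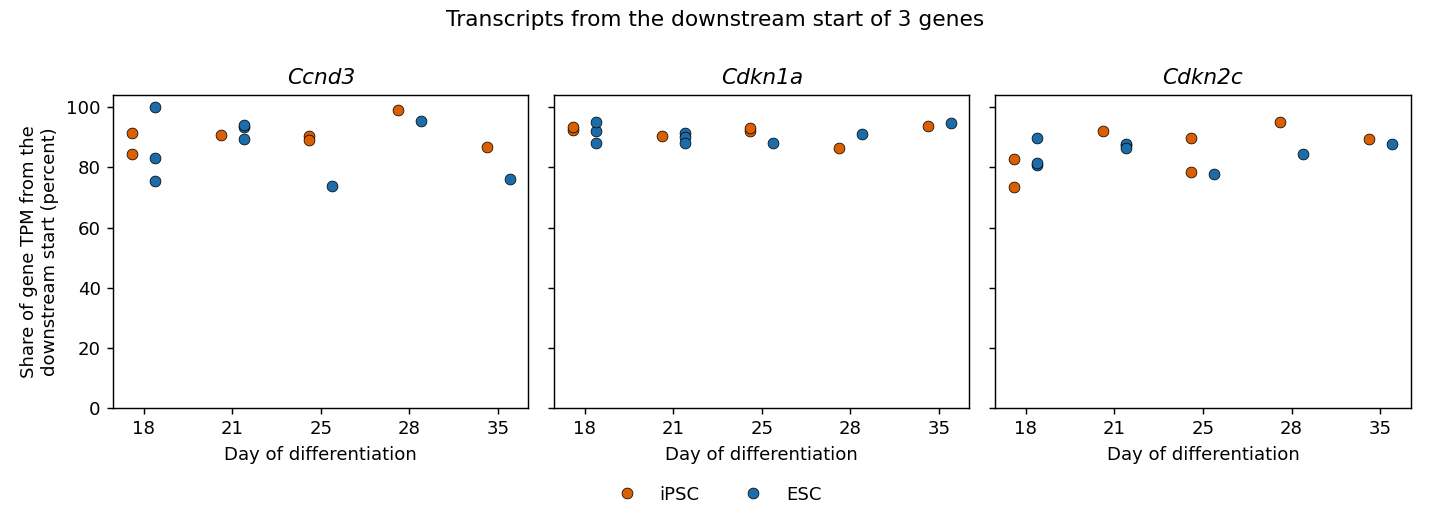
Share of a gene's TPM, in percent, carried by transcripts from the downstream of its 2 starts for Ccnd3, Cdkn1a and Cdkn2c, by day, 1 point per library in the colour of its source. The downstream start carries 73.5% or more in every library of each gene, and the points of different days overlap.

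Most of the TPM of each of these genes came from its downstream start. For Ccnd3, the downstream start held a median of 89.9% of the TPM (range 73.9 to 100%) and the upstream start 0.88% (range 0 to 17.7%). For Cdkn2c, whose 2 starts lie on chromosome 4, the downstream start held 86.9% (range 73.5 to 95.2%) and the upstream start 13.1%. Per length, the 8 genes with complete transcript sums ordered by median TPM as Cdk4 (355), Cdkn1b (93.9), Cdkn1a (88.1), Rb1 (58.3), Ccnd3 (30.7), Ccnd2 (17.4), Rbl1 (10.4) and Cdkn2c (7.77). The ranges of every pair of neighbours in that order overlapped. With all annotated transcripts summed, Cdk4 exceeded Cdkn1b in each of the 16 libraries, with 117 against 79.2 TPM in iPSC day 35. This did not hold for protein-coding transcripts alone. At days 25 to 35 their lowest, median and highest levels were 49.1, 87.4 and 150 TPM for Cdk4. For Cdkn1b they were 79.2, 92.0 and 107 TPM.

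Over the 16 libraries, the levels of Cdk4, Ccnd1 and Rbl1 correlated with Mki67 at r = 0.91, 0.90 and 0.84, and those of Cdkn2c, Ccnd3 and Ccnd2 at 0.74, 0.69 and 0.67. Cdkn1a stood at 0.04, Rb1 at -0.02, Cdkn1b at -0.05 and Cdkn2d at -0.29. These values describe points that share library, day and depth. The closest genes to Rbl1 were Kpnb1, a nuclear import factor (r = 0.97), Nasp, a histone chaperone (0.95), and Bard1, a DNA repair factor (0.95). Those closest to Cdk4 were Marcksl1 (0.97), Ppp1r18 (0.97) and Bcl2l12 (0.96), and those closest to Ccnd1 were Myb (0.97), Fzd5 (0.96) and Nr2e1 (0.96), the last a progenitor transcription factor. Ccnd2 lay closest to Irs1 (0.97), Pcdh18 (0.96) and Astn2 (0.95). For Rb1 the closest was mt-Nd4l at 0.86, and for Cdkn2d it was Mif at 0.93.

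The rest of the pathway was examined by list for days 25 to 35 against day 18. Across all genes, 17.1% were called in that comparison and 7.64% were called lower. Of 7 other kinases, cyclins and activators of the G1 to S step, 3 fell and 0 rose. Ccne1, the cyclin E1 that drives entry into S phase, stood at 0.341, 2.92 and 5.04 CPM (lowest, median, highest) at days 25 to 35, against 16.1 and 7.61 CPM in iPSC and 14.1, 9.94 and 9.41 CPM in ESC cells at day 18. Its log2 fold change was -1.76 ± 0.37 (SE; adjusted p = 0.010 by limma). Its kinase Cdk2 was at -1.71 and the phosphatase Cdc25a at -1.52, also called. Cdk6, the other partner of the D cyclins, was at -0.53 (95% interval -1.30 to 0.25).

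Of the 10 E2F and DP transcription factors, 4 fell and 0 rose. They were the activators E2f1 (-2.41 ± 0.61, SE) and E2f2 (-1.27 ± 0.39) and the repressors E2f8 (-2.36 ± 0.53) and E2f7 (-1.07 ± 0.32), with adjusted p between 0.014 and 0.041 by limma. E2f4, the repressor that partners pocket proteins in resting cells, was at -0.04 (95% interval -0.39 to 0.32). Among 7 partners of the MuvB and DREAM complexes, 2 fell and 0 rose, namely the mitotic factor Foxm1 (-2.93 ± 0.75) and the core subunit Lin9 (-0.72 ± 0.20).

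The other relatives of the listed genes moved in opposite directions. Rbl2 (p130), the pocket protein of resting cells, stood at 40.7, 58.7 and 67.2 CPM (lowest, median, highest) at days 25 to 35, against 32.1 and 48.2 CPM in iPSC and 27.6, 51.8 and 20.1 CPM in ESC cells at day 18. It rose by 0.65 ± 0.21 on the log2 scale (SE; adjusted p = 0.048 by limma). The Rbl2 call was lost in 12 of the 16 fits that left out 1 library (log2 fold change 0.50 to 0.82, adjusted p 0.010 to 0.170 by limma), without the low-Nrl pair (adjusted p = 0.361) and without the 2 libraries set apart by Eif2s3y (adjusted p = 0.092). Cdkn1c (p57), the other inhibitor of the family of p21 and p27, fell by 1.45 ± 0.28 (adjusted p = 0.0072 by limma). It was also the only gene of these pathway lists called against day 21, at -1.61 ± 0.30 (adjusted p = 0.039 by limma), a call lost in 11 of the 16 fits that left out 1 library (adjusted p 0.014 to 0.290). Cdkn2a and Cdkn2b, the remaining inhibitors of that kinase family, were too low to be tested, at no more than 0.190 and 3.08 CPM in any library.

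**Figure D4:**
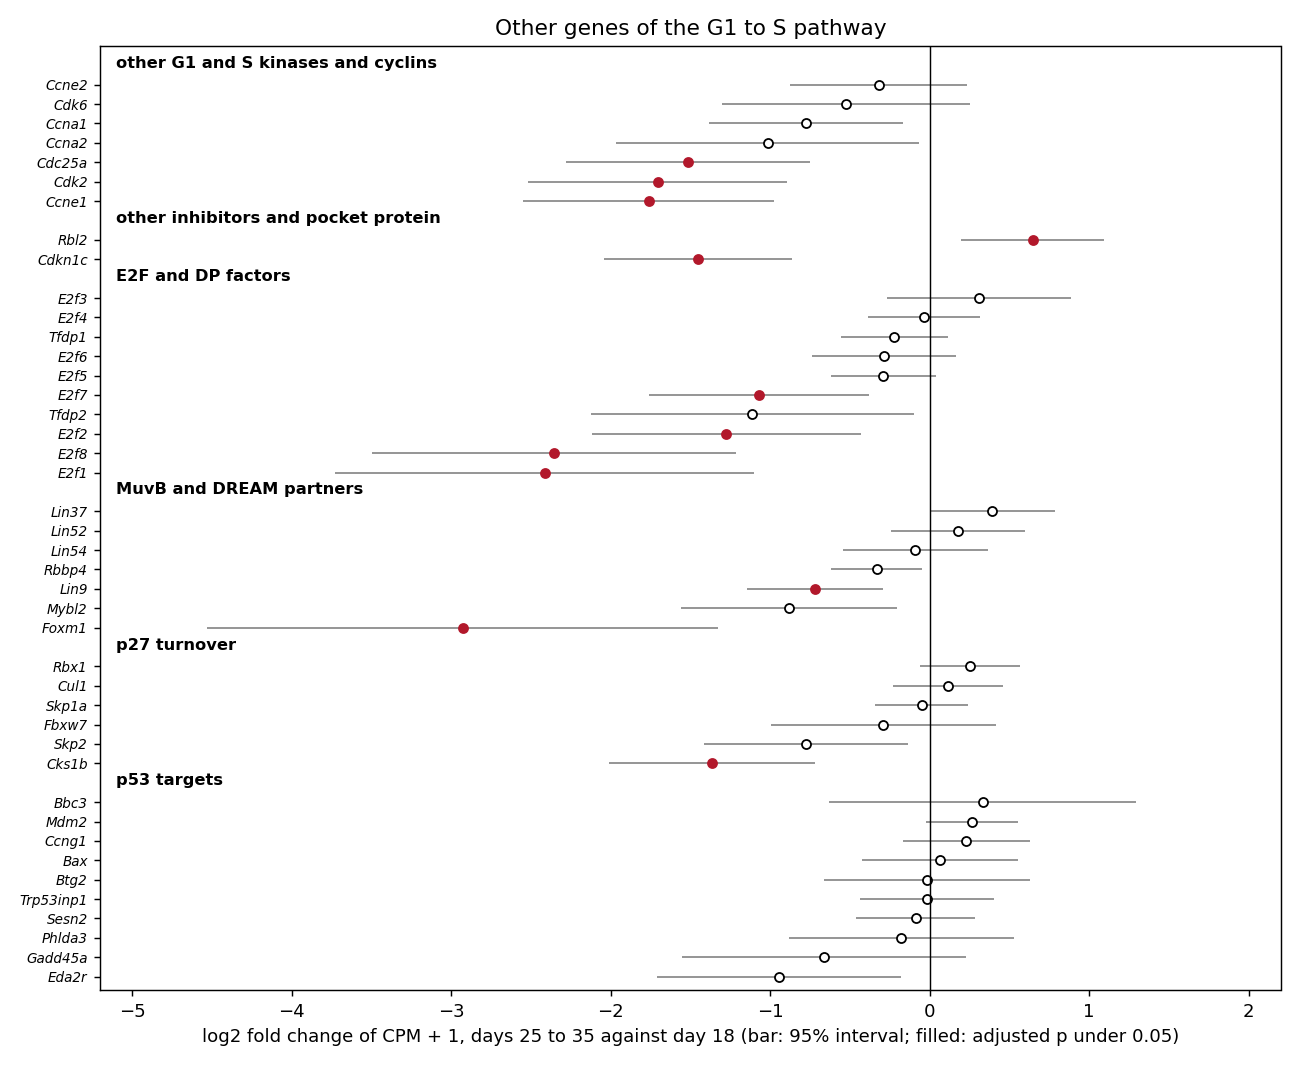
Log2 fold change of CPM + 1 with 95% intervals for the other tested genes of the pathway, days 25 to 35 against day 18, grouped by list, with filled points where the adjusted p is under 0.05. Filled points lie left of 0 for 11 genes and right of 0 for Rbl2 alone, and no p53 target is filled.

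Of 6 genes that mark or carry out the breakdown of p27, 1 fell, Cks1b (-1.37 ± 0.30), a cofactor of Skp2, and 0 rose. Of 10 p53 targets, 0 were called by limma, with 1 at an unadjusted p under 0.05, and edgeR and DESeq2 also called 0 of the 7 they could test. The most abundant were Btg2 at -0.02 and Ccng1 at 0.23. All 8 markers of dividing cells and 6 of 9 progenitor markers fell in the same comparison. The dividing markers summed to 90.8 to 321 CPM at days 25 to 35, against 270 to 1516 CPM at day 18, and their part in the falls above was not tested. Without the low-Nrl pair, 0 genes of the 6 pathway lists, 0 of the 10 listed genes, 0 of the 8 dividing markers and 0 of the 9 progenitor markers passed by limma, where 0.599% of all genes were called. Leaving out iPSC day 18 replicate 1 alone left 0 genes called in 5 of the 6 lists, Cdkn1c in the other, 1 dividing marker and 0 progenitor markers.

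Without the 2 day 18 libraries set apart by Eif2s3y, 8.69% of all genes were called and 2.04% were called lower. In that fit limma called 0 of the 10 E2F and DP factors, 0 of the 7 MuvB and DREAM partners, 0 of the 6 genes of p27 breakdown and 0 of the 10 p53 targets. It called 2 of the 7 other G1 to S genes, 1 of the 2 other relatives (Cdkn1c, lower), 2 dividing markers and 1 progenitor marker, and all 7 rod markers.

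For day 35 alone against day 18, 2 of the 10 genes were called lower, Cdk4 and Rbl1, where 7.53% of all genes were called, 2.99% lower and 4.54% higher. Ccnd1 had the largest estimate, -3.52, with a 95% interval of -6.40 to -0.63 and an adjusted p of 0.120 by limma. Leaving out iPSC day 35 removed both calls (adjusted p = 0.079 for Cdk4 and 0.289 for Rbl1), with ESC day 35 then the only library of that day, assumed to vary like the other groups. The Rbl1 call at day 35 was also lost without iPSC day 18 replicate 1 (adjusted p = 0.079), without ESC day 18 replicate 1 (0.068) and without the 2 day 18 libraries set apart by Eif2s3y (-1.49, adjusted p = 0.083), all by limma. Cdk4 stayed called at day 35 in these 3 cases.

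For any difference between days, limma called 0 of the 10 genes against 1.65% of all genes. Of these, 2, Cdk4 and Rbl1, had an unadjusted p under 0.05, as did 23.1% of all genes. Cdk4 came closest (F = 8.91, adjusted p = 0.053 by limma), and it passed when any 1 of 5 libraries was left out, namely replicate 2 of iPSC day 18, replicate 1 of iPSC day 25, replicate 2 of ESC day 18, replicate 3 of ESC day 21 or the single ESC library of day 28. The count test edgeR called 0 of the 8 genes it could test and DESeq2 called 2, Cdk4 and Rbl1. Of all genes tested, edgeR called 1.14% and DESeq2 18.1%.

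For days 25 to 35 against day 21, which leaves the day 18 levels out of the contrast, limma called 0 of the 10 genes against 0.447% of all genes (0.217% lower). Both edgeR and DESeq2 called 0 of 8, where they called 0.525% and 5.03% of all genes tested. In limma, 3 of the 10 genes had an unadjusted p under 0.05 (14.7% of all genes did), each lower in the later days. Cdk4 had 59.8 to 229 CPM at days 25 to 35, against 183 CPM in iPSC and 251, 168 and 145 CPM in ESC cells at day 21, a log2 fold change of -0.59 (95% interval -1.14 to -0.03). Rbl1 was at -0.71 (95% interval -1.42 to -0.01), and Cdkn1b is given above.

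Between sources, with day accounted for, limma called 0 of the 10 genes and 0% of all genes. None of the 10 had an unadjusted p under 0.05, while 5.53% of all genes did, and edgeR and DESeq2 called 0 of 8. The largest estimates were lower in iPSC cells, at -0.66 for Ccnd2 (95% interval -2.06 to 0.73), -0.40 for Ccnd1 (-2.21 to 1.42) and -0.39 for Cdk4 (-0.83 to 0.06). By day, Cdk4 overlapped between sources at day 18, stood at 183 CPM in iPSC against 145 to 251 CPM in ESC cells at day 21, and at 167 and 96.5 CPM in iPSC against 144 CPM in ESC cells at day 25. At day 28 it had 85.7 CPM in iPSC against 229 CPM in ESC cells, and at day 35 it had 59.8 CPM in iPSC against 95.03 CPM in ESC cells. The change from day 18 to days 25 to 35 was compared between sources as an interaction, and 0 of the 10 genes passed (adjusted p = 0.999 by limma). Rb1 had an unadjusted p of 0.047 there, with -0.28 in iPSC cells and 0.54 in ESC cells. These comparisons took the source from the labels, although Eif2s3y set some libraries apart from the others of their source. Without the 2 day 18 libraries set apart by Eif2s3y, limma called 0 of the 10 genes and 0.0197% of all genes between sources. That fit kept iPSC day 25 replicate 1, also set apart by Eif2s3y, as iPSC, so it did not remove every library set apart.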

How the data were processed

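The members and gene lists were chosen with earlier results of these data known. The submitters' processing notes name Trimmomatic 0.36 for trimming and kallisto 0.42.5 for quantification, and the design text adds tximport and edgeR for the gene level. The authors' deposited gene table holds the square of log2(CPM + 1) minus 1, a scale that the file does not state and that was checked against TPM: 6871 of 7037 genes (97.6%) had the same ratio of CPM to summed TPM in every library, within 0.001 on the log2 scale. The estimated counts and the TPM values were deposited per transcript and stop at 65535 transcripts, so sums were complete for 8 of the 10 genes, not for Ccnd1 and Cdkn2d. All columns were mapped by name.

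The test was limma 3.58.1 (R 4.3.3) with trend on log2(CPM + 1), fitted to source and day in all 16 libraries, for 15202 genes reaching 1 CPM in 2 libraries or more. P-values were adjusted by Benjamini and Hochberg over all genes and called under 0.05. Days 25 to 35 are the mean of 3 day coefficients. A pseudocount of 1 understates the change of low genes. Alternatives were edgeR 4.0.16 and DESeq2 1.42.0 on rounded sums of estimated counts (9327 genes reaching 10 counts in 2 libraries or more). Further alternatives were other filters, a pseudocount of 0.1, rescaled CPM, each library left out, a replicate block and contrasts within each source. The contrasts within a source came from a fit of every group of source and day in all 16 libraries. Their spread was thus pooled over both sources. Chosen after the data were seen were the removal of the low-Nrl day 18 pair, the removal of 2 day 18 libraries set apart by Y-linked genes, and the interaction. The fits were also run on simulated counts drawn independently for each library, a setting without the likeness between libraries described above. That run does not bear on the calls given here. Named genes were all 10 members, up to 4 called genes of each list by size (or the 2 most abundant where none was called) and the 3 genes closest to a member among genes averaging 5 CPM or more; not all of these are printed, and E2f4, Cdk6, Phlda3 and Eif2s3y were named for their role. The p53 pattern was added after its window had been seen. Transcript names, types and coordinates come from GENCODE M21 on GRCm38.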

Additional observations from a re-analysis of the deposited data

Results flagged for a closer look

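Ccnd1 at day 18 was set apart by its lowest library, ESC replicate 2, at 12.4 CPM, where the other 4 libraries held 291 to 601 CPM. On the log2(CPM + 1) scale, the gap to the nearest library took 0.81 of the whole range, past the limit used for a group of that size. It was the only one of 20 groups of listed genes and days examined that passed, and chance alone passes about 1 in 20. Without that library the Ccnd1 change for days 25 to 35 against day 18 passed the threshold, as described above.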

How the results depend on the processing

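Of 1250 values of single genes under the alternatives, 1138 kept their direction and their side of the threshold, 25 passed it newly, 16 no longer passed it and 71 changed sign, none of them a value called in the reported test. Most of the 1138 were values called in neither fit. Only Cdk4 and Rbl1, for days 25 to 35 and for day 35 against day 18, were called as reported and could lose a call. The 16 losses all fell on these. The number of the 10 genes called for days 25 to 35 against day 18 (2 as reported) was 4 with DESeq2, 0 without the low-Nrl pair, and 0 within ESC and 0 within iPSC libraries. In that order, 27.1%, 0.599%, 0.132% and 0.0526% of all genes tested were called. The number ran from 1 to 4 with single libraries left out, lowest without iPSC day 18 replicate 1 and highest without ESC day 35. Their shares of all genes are given above. For day 35 against day 18 (2) it was 1 with no filter, 1 with edgeR, 0 without the low-Nrl pair, 1 without the pair set apart by Y-linked genes, and 0 to 3 with single libraries left out. The share of all genes called for day 35 was 3.22% with no filter, 6.9% with edgeR, 0.967% without the low-Nrl pair and 4.16% without the Y-linked pair. For any difference between days (0) the number was 1 with the stricter filter of 5 CPM (1.98% of all genes) and 2 with DESeq2 (18.1%). With single libraries left out it was 0 to 3, highest without ESC day 18 replicate 2 (3.93%). It stayed at 0 against day 21 and between sources under every alternative run. The cause of these differences was not tested. Same-numbered libraries deviated together in part (13 pairs, r = 0.00 to 0.64, 10 of them over 0.1). ESC day 21 replicate 3 and iPSC day 18 replicate 2, of different number, stood at 0.659. These values do not settle whether the numbers pair libraries. With the replicate block 6 genes were called for days 25 to 35 against day 18 (Ccnd1, Ccnd2, Ccnd3, Cdk4, Cdkn2c and Rbl1, all lower), 4 for day 35 (Ccnd1, Ccnd3, Cdk4 and Rbl1) and 3 for any difference (Ccnd3, Cdk4 and Rbl1), where 30.9%, 19.4% and 12.7% of all genes were called.

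These values changed sign, and none was called as reported. Rescaled CPM gave -0.13 (Cdkn1b) and -0.027 (Cdkn2d) against day 18, -0.063 (Rb1) for day 35 and -0.032 (Cdkn1b) between sources. For days 25 to 35 against day 18, edgeR gave 0.028 (Cdkn1a) and -0.060 (Cdkn1b), and DESeq2 gave 0.015 (Cdkn1a) and -0.071 (Cdkn1b). Ccnd3 against day 21 was -0.0385 with edgeR, -0.035 with DESeq2 and -0.080 with the replicate block. Cdkn1b between sources was -0.0066 with DESeq2 and -0.079 without the Y-linked pair. The replicate block gave Cdkn2d 0.086 against day 21 and 0.14 between sources. Without the low-Nrl pair, days 25 to 35 against day 18 gave -0.070 (Cdkn1b) and -0.022 (Cdkn2d). Within ESC libraries it gave 0.15 (Cdkn1a) and -0.015 (Cdkn2d), and within iPSC libraries -0.26 (Cdkn1b) and -0.28 (Rb1). With single libraries left out, the ranges that crossed 0 against day 18 were -0.13 to 0.15 (Cdkn1a), -0.056 to 0.19 (Cdkn1b) and -0.032 to 0.32 (Cdkn2d). For day 35 they were -3.34 to 0.44 (Ccnd2), -0.22 to 0.019 (Cdkn1b), -0.75 to 0.30 (Cdkn2d) and -0.25 to 0.41 (Rb1). Against day 21 they were -1.11 to 0.41 (Ccnd2), -0.17 to 0.27 (Ccnd3), -0.25 to 0.16 (Cdkn2d) and -0.19 to 0.030 (Rb1). Between sources they were -1.0004 to 0.0047 (Ccnd1), -0.068 to 0.13 (Cdkn1b), -0.22 to 0.11 (Cdkn2c), -0.16 to 0.12 (Cdkn2d) and -0.052 to 0.28 (Rbl1). Days 28 and 35 have 1 library per source, and low genes such as Cdkn2c rest on as few as 10 counts, which limits what these days can show.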
